A study of Mus musculus with 4 samples.

Results

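The interferon regulatory factors are a family of DNA-binding proteins that share an amino-terminal domain recognising GAAA-containing elements. Irf1 and Irf2 compete for such elements, Irf3, Irf5 and Irf7 act downstream of nucleic acid sensors and Toll-like receptors, Irf9 is the DNA-binding subunit of the ISGF3 complex, and Irf4 and Irf8 bind together with partners such as PU.1 and Batf factors. In the intestine, interferons and the IL-22 made by ILC3s both act on the epithelium during infection. The 8 family genes described here (Irf1, Irf2, Irf3, Irf4, Irf5, Irf7, Irf8 and Irf9) were taken by symbol from the 53379 genes of the deposited expression table. All 8 were found, and 7 of them were among the 14739 genes tested, which had a mean above 1 FPKM (fragments per kilobase of transcript, scaled to the fragments of each library) in either group. Irf4 was below that limit.

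The libraries came from mixed bone marrow chimeras, in which equal numbers of marrow cells from the donors of both genotypes were transferred together into sublethally irradiated Rag2-/-Il2rg-/- mice. Control ILC3s were of Rag1-/-Smarca4f/f origin (Thy1.2), Brg1-deficient ILC3s came from Rag1-/-Smarca4f/f donors that also carried a Cre transgene (Thy1.1 and Thy1.2), and both were isolated from the small intestine of the same kind of recipient 6 to 7 weeks later. The sort gate took cells low in CD45 and high in Thy1.2, and Thy1.1 told the donors apart. Both donors lacked Rag1, so that neither provided mature T or B cells. Cre deletes Smarca4, which encodes the chromatin remodeler Brg1, in the cells that express the transgene and in their progeny. The ages of the mice and the number of recipients behind each library were not given in the sources used here. There were 2 libraries per group, called biological duplicates in the methods, and p-values measure the spread between these libraries only. The limma test used here draws the variance of each gene towards that of other genes, so that a p-value does not rest on that gene's own spread alone.

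Smarca4 was at 17.1 and 16.7 FPKM in the control libraries against 9.98 and 9.03 FPKM in the Brg1-deficient libraries, or 56.2% of the control mean. All 12 ILC3 markers were above the limit for testing, and Il22 and Id2 were the most abundant of them. Ccr6, a marker of the lymphoid tissue inducer-like subset, was at 186 and 203 FPKM in controls against 92.9 and 106 FPKM in Brg1-deficient cells. Read counts were not used here, so that the depth of each library is unknown, and between 30046 and 36929 genes per library were above 0 FPKM. The sorted FPKM values were nearly the same in the 4 libraries, as quantile normalization gives, so that these data cannot show a change in total RNA. Differences between groups are given on the log2(FPKM + 1) scale, where those of genes with low FPKM come out too small. They were tested with limma over all 14739 genes with Benjamini-Hochberg adjustment. Of the 12 ILC3 markers, 1 was lower (Ccr6) and 1 was higher at an unadjusted p under 0.05 from limma. This stands beside 6.47% (lower) and 6.12% (higher) of all genes tested, and the median log2 fold change of the 12 was 0.05. For Smarca4, the deleted gene, the log2 fold change was -0.77 and the adjusted p from limma was 0.153.

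Irf8 and Irf5 were the family genes with lower values in both Brg1-deficient libraries than in both controls. Their means in Brg1-deficient ILC3s were 36.6% and 41.6% of the control means, respectively. The other 6 genes, Irf1 with the highest level among them, had overlapping values in the groups. None of the 7 genes tested passed an adjusted p under 0.05 in limma, a limit that 0.224% of all genes tested passed as lower and 0.0814% as higher in Brg1-deficient ILC3s. At an unadjusted p under 0.05 from limma, 2 of the 7 were lower and 0 were higher, where 6.47% of all genes tested were lower and 6.12% were higher. The same 2 genes met the criteria that the study set for its gene ontology lists, applied here to the limma test, and these were met by 7.08% (lower) and 6.25% (higher) of the 9095 genes with a mean above 5 FPKM in either group. Both libraries of one group lay beyond both of the other in 20.2% (lower) and 24.4% (higher) of all genes tested. The median log2 fold change was -0.19 over the 7 genes and 0.03 over all genes tested.

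**Figure D1:**
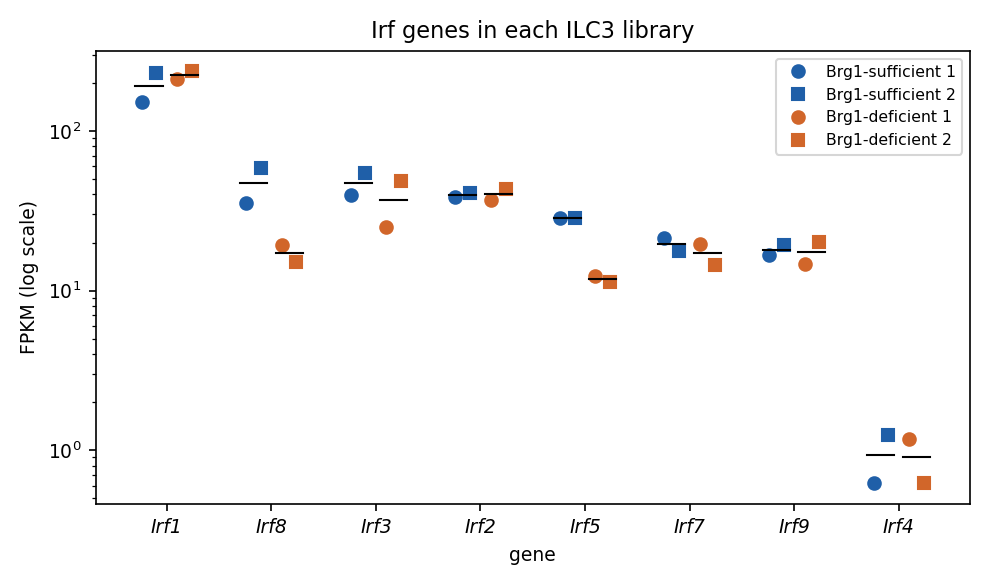
Levels of the 8 Irf genes in FPKM on a log axis, with 1 point per library and a black line at each group mean, ordered by the control mean. The Brg1-deficient points of Irf8 (19.2 and 15.1 FPKM) and Irf5 (12.4 and 11.3 FPKM) lie below both control points, and those of the other genes overlap with the controls.

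Irf8 directs the development of monocytes and of type 1 dendritic cells and is also expressed in B cells and other lymphocytes. It was at 35.1 and 58.8 FPKM in the control libraries against 19.2 and 15.1 FPKM in the Brg1-deficient libraries. Groups did not overlap, and the controls were further from each other than the Brg1-deficient libraries were, in FPKM and on the log2 scale. The log2 fold change was -1.36 (standard error 0.281, 95% interval -2.07 to -0.66), with an unadjusted p of 0.0038 from limma and an adjusted p of 0.147. Of all genes tested, 316 (2.14%) had a lower log2 fold change. Irf8 was above 80.7% and 88.1% of the genes tested in the control libraries and above 69.4% and 64.6% of them in the Brg1-deficient libraries. Without Brg1-deficient replicate 1 or 2 the unadjusted p of Irf8 from limma was 0.0554 or 0.0859, with the remaining library assumed to vary like the controls, and the log2 fold change lay between -1.73 and -1.0 over the 4 fits that each left out a library. Irf8, at chr8:120736358-120756694 of GRCm38 on the plus strand, lies within Gm20388, a longer gene model of the same strand that was at 13.8 and 11.2 FPKM in controls against 12.3 and 9.75 FPKM in Brg1-deficient cells. How reads were shared between these models was not tested.

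Irf5 transmits signals from endosomal Toll-like receptors to inflammatory cytokine genes. Its values were 28.5 and 28.4 FPKM in the control libraries and 12.4 and 11.3 FPKM in the Brg1-deficient libraries. Replicates were close in both groups, and the gap between the groups exceeded the spread within them. The log2 fold change was -1.20 (standard error 0.154, 95% interval -1.59 to -0.81), with an unadjusted p of 0.000397 from limma and an adjusted p of 0.0677. Leaving out single libraries gave values from -1.26 to -1.14. When only the genes with a mean above 5 FPKM in either group were tested, the adjusted p of Irf5 from limma was 0.0325, whereas it was 0.182 with no filter on low FPKM and 0.136 in limma without its trend. Irf5 lies at chr6:29526625-29541871 of GRCm38 on the plus strand, and its last 1045 bases overlap Tnpo3 on the other strand, which was between 42.6 and 44.3 FPKM in all 4 libraries.

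In bulk samples, fewer cells of a type and less RNA per cell cannot be told apart. Irf8 and Irf5 made up 10.6% and 8.58% of the summed FPKM of the 8 genes in control library 1 and 13.002% and 6.27% in control library 2. In the Brg1-deficient libraries, Irf8 made up 5.62% and 3.88% and Irf5 made up 3.62% and 2.89%. Irf1 made up 45.8% and 51.2% of the sum in controls and 62.2% and 60.7% in Brg1-deficient ILC3s. The sum itself was 332 and 452 FPKM in controls and 342 and 390 FPKM in Brg1-deficient ILC3s, so that the groups overlapped in the total but not in these 3 shares.

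The 250 bases before the start of Irf8 and Irf5 are shown because these were the genes whose groups did not overlap, and a stretch before Irf1 is shown because Irf1 was the most abundant family gene. All were taken from the RefSeq windows of GRCm38.p6, plus strand, and the starts are those that GENCODE M21 gives as the start of the gene. Capitals in Irf8 and Irf1 mark TTCNNNGAA, the letters of a gamma interferon activation site (GAS) that STAT dimers bind, and capitals in Irf5 mark GGGCGG, a GC box.
Irf8, chr8:120736108-120736357: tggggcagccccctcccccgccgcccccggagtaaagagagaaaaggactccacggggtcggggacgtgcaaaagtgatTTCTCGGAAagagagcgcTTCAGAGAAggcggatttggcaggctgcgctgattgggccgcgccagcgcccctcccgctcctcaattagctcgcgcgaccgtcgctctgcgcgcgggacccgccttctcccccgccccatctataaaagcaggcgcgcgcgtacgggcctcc
Irf5, chr6:29526375-29526624: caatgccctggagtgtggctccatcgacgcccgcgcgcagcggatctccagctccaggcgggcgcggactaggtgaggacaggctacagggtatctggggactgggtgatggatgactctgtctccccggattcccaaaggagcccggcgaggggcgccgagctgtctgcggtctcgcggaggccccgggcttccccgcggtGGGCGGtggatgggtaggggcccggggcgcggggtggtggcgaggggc
Irf1, chr11:53769919-53769937: ctgatTTCCCCGAAatgat

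RefSeq windows were found for all 8 genes, 11 in all, and both strands were searched for 4 motifs. TTCNNNGAA was matched at 171 and 153 bases before the Irf8 start, at 90 bases before the Irf1 start and at 224 bases before the Irf2 start, and 7.02% of all 32851 windows held it. The core of the interferon-stimulated response element (ISRE), made of a pair of GAAA blocks 2 bases apart and bound by Irf proteins themselves, was matched before Irf2 at 241 bases, and 2.98% of all windows held it. TATAAA was matched before Irf8, Irf7 and Irf4, at 31, 29 and 26 bases, and in 12.4% of all windows. GGGCGG on either strand was matched in a window of every gene but Irf7, and in 32.7% of all windows. Irf8 and Irf5 held 29 and 25 CG dinucleotides in these 250 bases, against a median of 6 over all windows, and Irf1 held 25. Irf8 and Irf5 thus had no motif of the 4 in common other than the GC box, and Irf1 held a GAS match and a GC box as Irf8 did. These matches describe the letters only, and binding was not measured in these libraries.

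Irf1, which is induced by interferon gamma and raises antigen processing genes, had the highest level of the family. It was at 152 and 232 FPKM in control ILC3s against 213 and 236 FPKM in Brg1-deficient ILC3s. Control library 1 was the lowest of the 4, and control library 2 lay between the Brg1-deficient libraries. The log2 fold change of Irf1 was 0.26 (standard error 0.227, 95% interval -0.32 to 0.83, adjusted p = 0.675 from limma). Without control replicate 2 it was 0.56, with an unadjusted p of 0.0356 from limma in which the remaining control library was assumed to vary like the Brg1-deficient ones, and without control replicate 1 it was -0.05. Irf2, which antagonises Irf1 at shared sites, was at 38.5 and 41.1 FPKM in controls against 37.0 and 43.1 FPKM in Brg1-deficient cells. Its log2 fold change was 0.00 with a 95% interval of -0.38 to 0.39, the narrowest interval in the family (adjusted p = 0.992 from limma). The ratio of Irf1 to Irf2 was 3.95 and 5.64 in controls and 5.75 and 5.49 in Brg1-deficient ILC3s. The ratio of Irf8 to Irf1 did not overlap, at 0.231 and 0.254 in controls and 0.0904 and 0.064 in Brg1-deficient ILC3s.

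Irf3 is constitutively present and is activated by the kinases Tbk1 and Ikbke. It was at 39.5 and 54.3 FPKM in controls against 25.1 and 48.4 FPKM in Brg1-deficient ILC3s, and the 2 Brg1-deficient libraries differed from each other by more than the group means did. Its log2 fold change was -0.40 (95% interval -1.26 to 0.46, adjusted p = 0.661 from limma), the widest interval of the 7, and without Brg1-deficient replicate 1 it was 0.06. The start of Irf3 overlaps Bcl2l12 on the other strand over 1065 bases, and Bcl2l12 was at 8.93 and 8.21 FPKM in controls against 6.19 and 10.4 FPKM in Brg1-deficient cells.

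Irf7, the interferon-inducible amplifier of type I interferon production, was at 21.3 and 17.7 FPKM in controls against 19.7 and 14.6 FPKM in Brg1-deficient ILC3s. Irf9, which gives ISGF3 its DNA-binding specificity, was at 16.7 and 19.2 FPKM in controls against 14.6 and 20.1 FPKM in Brg1-deficient ILC3s. In both genes the values of the groups overlapped. The log2 fold changes were -0.19 (95% interval -0.71 to 0.34, adjusted p = 0.745 from limma) for Irf7 and -0.06 (95% interval -0.58 to 0.47, adjusted p = 0.933 from limma) for Irf9. Irf4, which acts in activated lymphocytes and plasma cells and is the closest relative of Irf8, was at 0.62 and 1.25 FPKM in controls against 1.18 and 0.62 FPKM in Brg1-deficient ILC3s. The difference between its group means on log2(FPKM + 1) was -0.02, with no test. Irf8 exceeded Irf4 in every library, by 56.7 and 47.1 times in controls and by 16.3 and 24.4 times in Brg1-deficient cells.

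**Figure D2:**
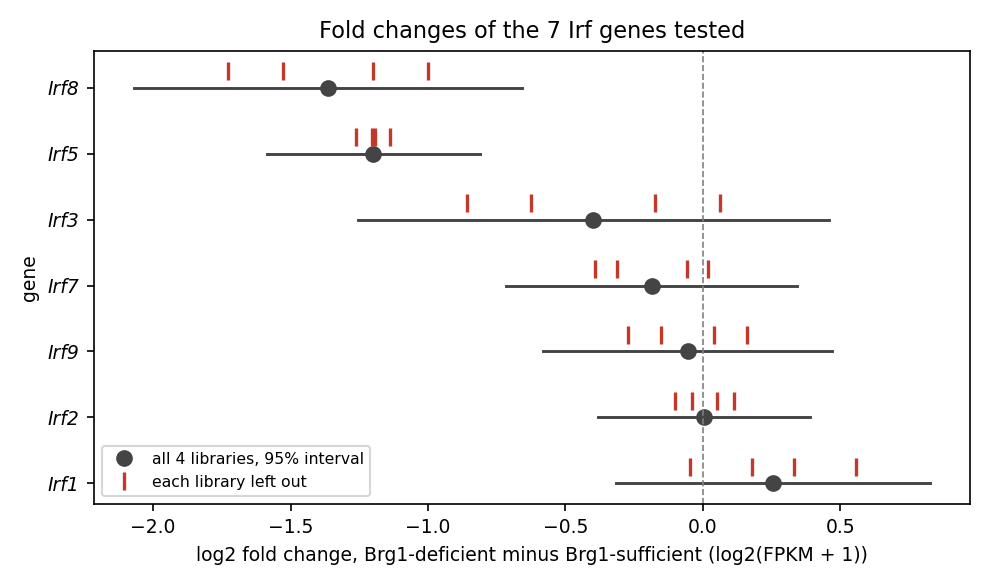
Log2 fold changes (Brg1-deficient minus Brg1-sufficient, on log2(FPKM + 1)) of the 7 Irf genes tested, with the 95% limma interval as a line and the value without each library in turn as a red tick. The intervals of Irf8 (-2.07 to -0.66) and Irf5 (-1.59 to -0.81) lie below 0 and those of the other 5 genes include 0.

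In control ILC3s the order of mean levels was Irf1, Irf8, Irf3, Irf2, Irf5, Irf7, Irf9 and Irf4. Irf8, Irf3 and Irf2 did not differ beyond the range of their replicates from their neighbours among these 3, nor did Irf7 and Irf9. In Brg1-deficient ILC3s the order was Irf1, Irf2, Irf3, Irf9, Irf8, Irf7, Irf5 and Irf4. Irf8 was thus next to Irf1 in controls and after Irf9 in Brg1-deficient cells, where its range overlapped with those of Irf9 and Irf7. FPKM are scaled to transcript length, which allows only a rough comparison of levels between genes. The cDNA was amplified by PCR before it was fragmented, and how this acted on single genes was not tested.

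The genes whose values over the 4 libraries were most like those of Irf8 were Kbtbd11, Tbx21 and Igflr1, by the Euclidean distance between log2(FPKM + 1) values centred on each gene's mean, among 8088 other protein-coding genes with a mean above 5 FPKM in either group. The distances were 0.251, 0.276 and 0.304. Tbx21, which encodes T-bet, was at 4.21 and 6.04 FPKM in controls against 1.28 and 0.90 FPKM in Brg1-deficient ILC3s. For Irf1, the closest were Cyb561a3, Smarcb1 and Dnmt1, at distances of 0.0444, 0.05 and 0.0589. Smarcb1, a core subunit of the BAF complex, was lowest in control library 1, at 22.95 FPKM, and between 33.6 and 36.0 FPKM in the other 3 libraries, as Irf1 was lowest there. With 4 libraries, these are descriptions only.

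Of 10 DNA-binding partners of the family, 8 were tested. Batf and Batf3, which pair with Jun proteins and recruit Irf4 or Irf8 to composite sites, were higher in both Brg1-deficient libraries than in both controls. Batf was at 91.3 and 112 FPKM in controls against 155 and 150 FPKM in Brg1-deficient ILC3s (log2 fold change 0.59, adjusted p = 0.223 from limma). Batf3 was at 47.8 and 77.3 FPKM in controls against 101 and 125 FPKM in Brg1-deficient ILC3s (log2 fold change 0.87, adjusted p = 0.269 from limma). These were the 2 partners with an unadjusted p under 0.05 from limma, where 6.12% of all genes tested were higher, and 0 of the 8 passed the adjusted limit. Of the 8, 3 were higher and 1 was lower in both Brg1-deficient libraries than in both controls. The shares over all genes tested were 24.4% and 20.2%. Jun and Junb were the most abundant partners and overlapped between the groups, with Jun between 1938 and 2455 FPKM and Junb between 2221 and 2896 FPKM. Spi1, which encodes PU.1, the myeloid partner of Irf8, was low, at 2.16 and 2.80 FPKM in controls against 1.26 and 4.11 FPKM in Brg1-deficient cells. Stat2, a partner of Irf9, had a difference of 0.16 on the log2 scale (adjusted p = 0.725 from limma).

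Of 22 sensors, adaptors and kinases that activate Irf3, Irf5 or Irf7, 19 were tested. At an unadjusted p under 0.05 from limma, 1 was lower and 0 were higher, beside 6.47% (lower) and 6.12% (higher) of all genes tested. The median log2 fold change was 0.00. The lower gene was Slc15a4, a lysosomal transporter that is needed for Irf5 activation by endosomal Toll-like receptors. Slc15a4 was at 20.7 and 23.4 FPKM in controls against 13.1 and 10.97 FPKM in Brg1-deficient ILC3s (log2 fold change -0.82, adjusted p = 0.155 from limma). Irf5 and Slc15a4 both had lower values in the Brg1-deficient libraries, neither passed the adjusted limit, and a link between them was not tested. Unc93b1, which carries these receptors to the endosome, was at 59.8 and 71.3 FPKM in controls against 63.2 and 57.8 FPKM in Brg1-deficient cells. The receptors Tlr7 and Tlr9 were under 1 FPKM in every library. Myd88, the adaptor upstream of Irf5 and Irf7, was at 61.1 and 83.8 FPKM in controls against 95.4 and 99.1 FPKM in Brg1-deficient ILC3s (log2 fold change 0.44, adjusted p = 0.430 from limma). The kinases Tbk1 and Ikbkb had log2 fold changes of -0.18 and 0.00.

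Among interferon genes, only Ifng was tested, and it passed the adjusted limit. Ifng was at 22.8 and 37.3 FPKM in controls against 3.42 and 3.22 FPKM in Brg1-deficient ILC3s (log2 fold change -2.80, adjusted p = 0.0386 from limma). The other 8 interferon genes listed, Ifnb1 among them, were under 1 FPKM in every library. Of 9 interferon receptor chains and kinases, 8 were tested and 1, Ifngr1, was lower at an unadjusted p under 0.05, with a median log2 fold change of -0.24. Ifngr1, the ligand-binding chain for interferon gamma, was at 356 and 276 FPKM in controls against 177 and 130 FPKM in Brg1-deficient ILC3s (log2 fold change -1.04, adjusted p = 0.148 from limma). Its partner Ifngr2 overlapped between the groups, with a log2 fold change of 0.15. Jak1 was between 185 and 215 FPKM in all 4 libraries.

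The mRNA levels of Ifng and Ifngr1 were thus lower in Brg1-deficient ILC3s, while those of Irf1, which interferon gamma induces, overlapped between the groups. Secreted interferon gamma was not measured, and cells of both donors were transferred together. Of 22 genes induced by interferon gamma or Irf1, all were tested, 2 were lower and 2 were higher at an unadjusted p under 0.05, and the median log2 fold change was 0.01. The lower genes were Iigp1, a GTPase that disrupts vacuoles of intracellular parasites, and Psmb8, an immunoproteasome subunit. Iigp1 was at 2.82 and 3.48 FPKM in controls against 0.76 and 0.80 FPKM in Brg1-deficient cells (log2 fold change -1.22, adjusted p = 0.184 from limma), and the difference of Psmb8 was -0.43 on the log2 scale (adjusted p = 0.362 from limma). The higher genes were the GTPases Gbp4, at 40.1 and 44.5 FPKM in controls against 71.7 and 80.5 FPKM in Brg1-deficient cells (log2 fold change 0.83, adjusted p = 0.111 from limma), and Irgm2 (log2 fold change 0.64, adjusted p = 0.381 from limma). B2m, the most abundant gene of the list, was at 7210 FPKM in 3 libraries and at 6828 FPKM in Brg1-deficient library 2. Because the sorted FPKM values were nearly the same in the 4 libraries, equal values such as these can show only an equal rank.

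Of 22 targets of ISGF3, the complex that contains Irf9, 19 were tested. At an unadjusted p under 0.05 from limma, 2 were lower and 2 were higher, beside 6.47% (lower) and 6.12% (higher) of all genes tested. None of the 19 passed the adjusted limit, and the median log2 fold change was 0.12. Bst2, which tethers enveloped viruses to the cell surface, was at 266 and 245 FPKM in controls against 117 and 122 FPKM in Brg1-deficient ILC3s (log2 fold change -1.09, adjusted p = 0.0612 from limma). Oasl1, which represses translation of Irf7 mRNA, was at 3.96 and 3.52 FPKM in controls against 1.95 and 1.49 FPKM in Brg1-deficient ILC3s (log2 fold change -0.80, adjusted p = 0.302 from limma). Oasl2 and Usp18, a negative regulator of the type I interferon receptor, had log2 fold changes of 0.45 and 0.58 (adjusted p = 0.322 and 0.309 from limma). These few genes differed in both directions, and 15 of the 19 targets had an unadjusted p of 0.05 or above from limma.

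Of 13 inhibitors of the family or of interferon signalling, all were tested, 0 were lower and 3 were higher at an unadjusted p under 0.05, and the median log2 fold change was 0.07. Besides Usp18, these were the phosphatases Ptpn6 and Ptpn2, which act on Jak and Stat proteins, with log2 fold changes of 0.64 and 0.46 (adjusted p = 0.326 and 0.362 from limma). The corepressor genes Irf2bp1, Irf2bp2 and Irf2bpl had log2 fold changes of -0.07, 0.00 and -0.27. Socs3, the most abundant inhibitor, was between 127 and 202 FPKM and overlapped between the groups.

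**Figure D3:**
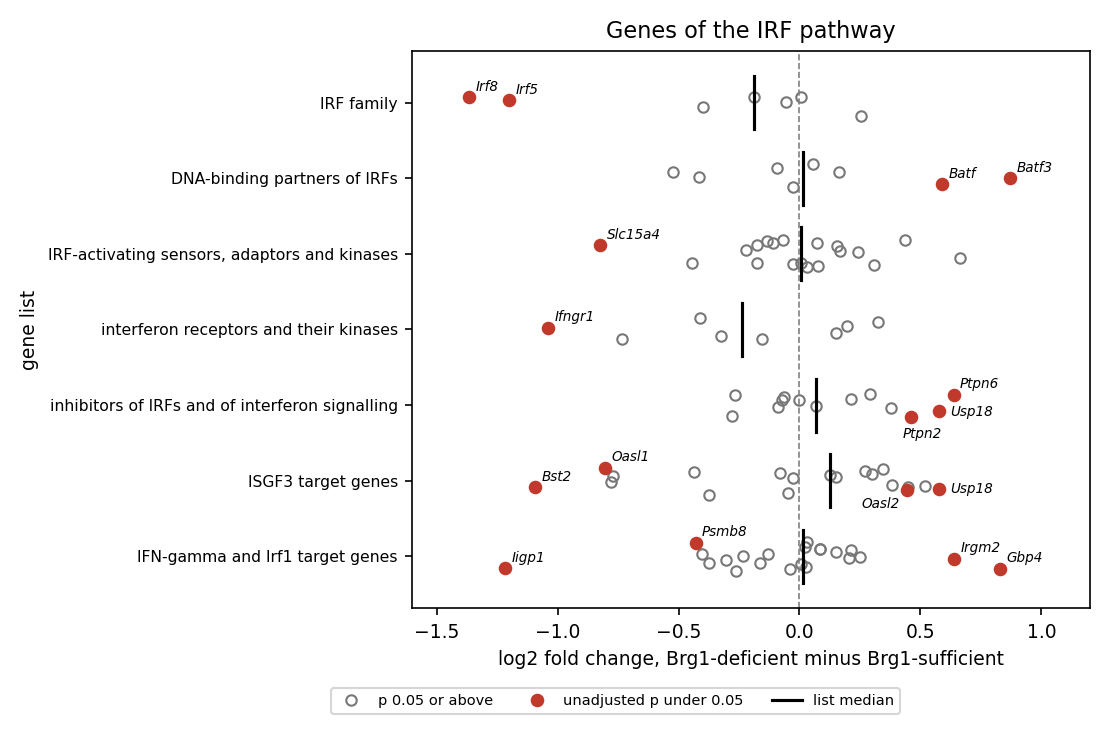
Log2 fold changes (Brg1-deficient minus Brg1-sufficient) of the genes tested in 7 lists, with 1 point per gene, red where the unadjusted limma p was under 0.05 and named, and a black line at each list's median. The medians lie between -0.24 (interferon receptors and their kinases) and 0.12 (ISGF3 targets), and Irf8 and Irf5 are the leftmost points of the family.

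Irf8 and Irf5 are abundant in myeloid and B cells, and the levels of markers of such cells were therefore set beside them. The summed level of 12 macrophage and monocyte markers was 165 and 355 FPKM in controls and 121 and 314 FPKM in Brg1-deficient ILC3s, and at an unadjusted p under 0.05 from limma, 1 of the 10 tested was lower (Adgre1) and 1 was higher (Fcgr1). It was higher in library 2 of both groups and overlapped between the groups. Lyz2, the most abundant of these markers, was at 84.1 and 203 FPKM in controls against 64.4 and 192 FPKM in Brg1-deficient cells, and C1qb followed the same order. Irf8 was higher in library 2 than in library 1 among controls and lower in library 2 among Brg1-deficient ILC3s, and Irf5 differed little between replicates.

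The summed level of 12 dendritic cell markers was 1535 and 1504 FPKM in controls and 418 and 876 FPKM in Brg1-deficient ILC3s, and 4 of the 7 tested were lower at an unadjusted p under 0.05. These were Zbtb46, Cd74, H2-Aa and H2-Ab1, the last 3 of which encode parts of the MHC class II pathway that ILC3s also express. These 3 genes made up most of the summed level in every library. Cd74 alone was at 1014 and 940 FPKM in controls against 223 and 505 FPKM in Brg1-deficient ILC3s. Ciita overlapped between the groups, at 1.03 and 1.97 FPKM in controls against 2.07 and 1.87 FPKM in Brg1-deficient ILC3s. Zbtb46 was at 40.4 and 31.1 FPKM in controls against 12.2 and 7.51 FPKM in Brg1-deficient ILC3s (log2 fold change -1.78, adjusted p = 0.0917 from limma). Whether Zbtb46 was expressed by ILC3s or by other cells was not tested. Xcr1, a receptor of type 1 dendritic cells, was at 3.74 and 3.01 FPKM in controls against 2.72 and 2.68 FPKM in Brg1-deficient cells, lower in both but with an unadjusted p of 0.365 from limma. Clec10a was at 1.37 and 2.39 FPKM against 0.98 and 1.71 FPKM, and overlapped between the groups. Flt3, Siglech and Cd209a were under 1 FPKM in every library, Clec9a was at 1.22 FPKM or less and Itgax at 1.01 FPKM or less. The summed level of 8 B cell markers was 10.7 and 12.2 FPKM in controls and 3.32 and 3.0 FPKM in Brg1-deficient ILC3s. Cd79b, at 8.68 and 10.0 FPKM and at 1.03 and 0.99 FPKM (log2 fold change -2.36, adjusted p = 0.0386 from limma), made up most of it in controls, and the other 7 B cell markers, Ms4a1 and Pax5 among them, were under 1 FPKM in every library.

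Markers of other lymphoid cells differed between the groups as well. Of 10 markers of ILC1s and NK cells, 9 were tested, 4 were lower and 2 were higher at an unadjusted p under 0.05 from limma. Ncr1, which encodes NKp46, was at 31.3 and 35.5 FPKM in controls against 5.37 and 6.02 FPKM in Brg1-deficient ILC3s (log2 fold change -2.36, adjusted p = 0.033 from limma), and NKp46 is also carried by a subset of ILC3s. Ifng and Prf1 were lower as well, Klrk1 was higher, and Gzmb overlapped between the groups. The summed levels of 10 ILC2 markers were 449 and 245 FPKM in controls and 104 and 135 FPKM in Brg1-deficient ILC3s, with 7 of 9 tested lower at an unadjusted p under 0.05, among them Ccr8, Klrg1, Il17rb and Arg1. Gata3, the most abundant ILC2 marker, was at 183 and 110.0 FPKM in controls against 74.5 and 105 FPKM in Brg1-deficient cells (adjusted p = 0.441 from limma). Those of 8 T cell markers were 105 and 56.4 FPKM in controls and 30.4 and 33.4 FPKM in Brg1-deficient ILC3s, with 5 of 6 tested lower at an unadjusted p under 0.05, among them Cd3g, Cd3e, Cd28 and Cd4. In both lists, control library 1 was the highest of the 4. Irf8 was highest in control library 2, and Irf5 was at 28.53 and 28.35 FPKM in control libraries 1 and 2. With 2 libraries per group, the order of replicates was not tested. Donors lacked Rag1 and recipients lacked Rag2, so that the T cell and B cell lists do not measure mature T or B cells here. The part of cells that carry any of these markers in the levels of Irf8 and Irf5 was not tested.

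**Figure D4:**
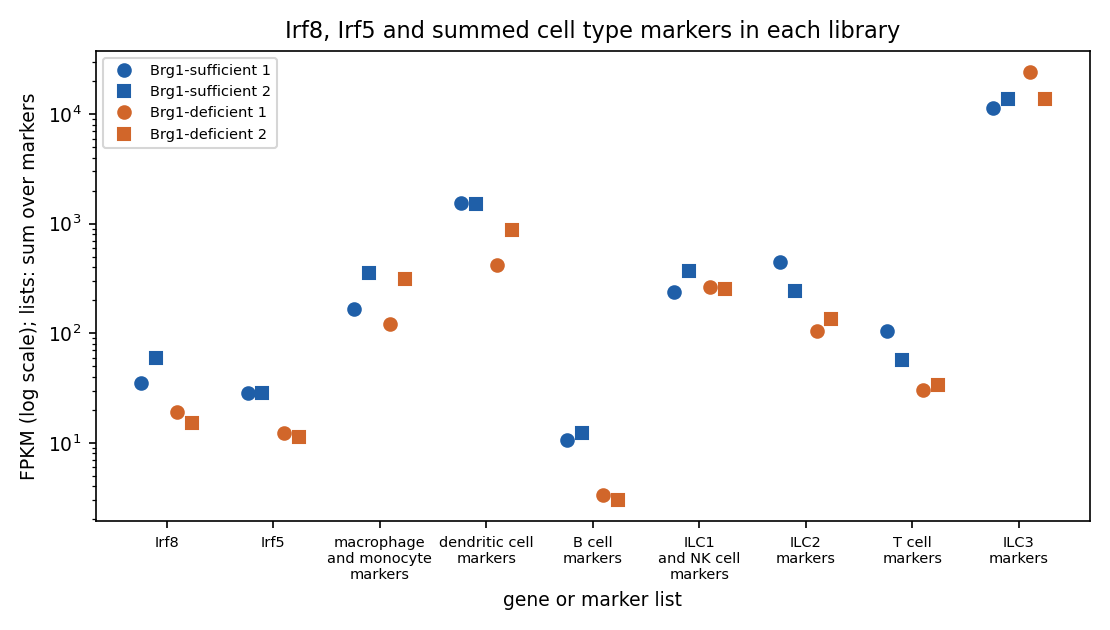
Levels of Irf8 and Irf5 and the summed levels of 7 marker lists in FPKM on a log axis, with 1 point per library. Macrophage and monocyte markers were higher in library 2 of both groups (355 and 314 FPKM). Irf8, Irf5 and the sums of dendritic cell, B cell, ILC2 and T cell markers were lower in both Brg1-deficient libraries than in both controls. The dendritic cell sum was mostly that of Cd74, H2-Aa and H2-Ab1, and the B cell sum in controls was mostly Cd79b.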

How the data were processed

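RNA of sorted small intestinal ILC3s was sequenced in 4 libraries, 2 per donor genotype. Reads had been aligned by the authors to GRCm38.p5 (STAR v2.5) and assigned to GENCODE M16 genes (RSEM v1.2), and the deposited values are FPKM. No source used here names a further normalization, but 99.3% of the sorted values above 1 FPKM agree within 1% across libraries. Columns were matched to libraries by genotype and number in the sample titles. Genes with a mean above 1 FPKM in either group were tested with limma 3.58.1 (lmFit, eBayes with trend, R 4.3.3) on log2(FPKM + 1), Brg1-deficient minus Brg1-sufficient, with Benjamini-Hochberg adjustment over all genes tested. The study's list criteria were p under 0.05, FDR under 0.4, a mean above 5 FPKM in either group and a fold change beyond 0.5 on the log2 scale. Counts of list genes at an unadjusted limma p under 0.05 are to be read beside 6.47% (lower) and 6.12% (higher) of all genes tested.

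The 8 members and the gene lists were chosen with earlier results of these data known. Besides the members, genes to name were set by a rule for each list. They were those at an adjusted p under 0.05, the 3 with the largest change at an unadjusted p under 0.05 and the 2 with the highest mean. Psme1, Cd79a and Epcam also met this rule and are not described. Other genes are named for their known role, chosen after their values were seen. Epithelial markers (6 genes, 4 of them under 1 FPKM in every library) were checked too, and Krt8 was at 0.44 and 0.38 FPKM in controls and at 2.65 and 2.34 FPKM in Brg1-deficient cells. Gene positions came from GENCODE M21 (GRCm38), in which 53274 identifiers were found, and promoters from RefSeq. Libraries of both groups share the numbers 1 and 2, which no source says pair them, and across genes the deviations correlated at -0.000386 between libraries sharing a number. The scripts were tested on simulated data. Some items named in the labels or lists are not reported here.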

Additional observations from a re-analysis of the deposited data

How the results depend on the processing

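In limma with a replicate block, Irf5 and Irf8 passed an adjusted p under 0.05 (log2 fold changes of -1.20 and -1.36, adjusted p = 0.0141 and 0.028), and 248 genes were lower and 150 higher in place of 33 and 12. The numbers are not known to pair the libraries. When only genes with a mean above 5 FPKM were tested, Irf5 (-1.20) passed as well, and 73 genes were lower and 41 higher among 9095. With no filter on low FPKM, and in limma without its trend, 0 genes were lower and 0 higher at the adjusted limit, where 1400 and 1308 or 965 and 903 had an unadjusted p under 0.05 in limma. Without a filter, 44235 genes entered the adjustment. For the remaining settings the cause was not tested. With log2(FPKM + 0.1), quantile normalization or rescaling to TPM, the counts of genes stayed within 1.5 times. No gene of the family changed sign or side of the limit in these settings. Quantile normalization and rescaling could change little here, because the sorted values already agreed across libraries, so that their outcome is no check of the result. The adjusted p from limma over all alternatives lay between 0.0141 and 0.426 for Irf5 and between 0.028 and 0.665 for Irf8.

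Leaving out single libraries gave log2 fold changes between -1.26 and -1.14 for Irf5, -1.73 and -1.0 for Irf8, -0.05 and 0.56 for Irf1, -0.10 and 0.11 for Irf2, -0.86 and 0.06 for Irf3, -0.39 and 0.02 for Irf7, -0.27 and 0.16 for Irf9, and -0.26 and 0.21 for Irf4. The sign of Irf1 (-0.0469 without Brg1-sufficient replicate 1), Irf3 (0.0621 without Brg1-deficient replicate 1), Irf7 (0.0193 without Brg1-deficient replicate 2), Irf2, Irf9 and Irf4 therefore depended on single libraries. The number of family genes at an unadjusted p under 0.05, which was 2, ranged from 1 to 3, and 0 genes overall passed the adjusted limit in any of these fits (the unadjusted counts were 507 to 1675 lower and 735 to 1507 higher). The depth of the libraries is unknown, so that counting error, which matters most for Irf4, could not be given.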
